A study of Mus musculus with 8 samples.

Results

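Cytosolic ribosomal proteins are the protein component of the ribosome, and 47 of their genes, read by 65 probe sets, were followed here through 4 groups of mouse spleen B cells. They were chosen by name: probe sets with a single gene symbol that begins with Rpl or Rps and a number, with the suffix letters of paralogs allowed, together with the P-stalk genes and Rpsa, and without names marked as pseudogenes. The array held 22225 probe sets with 1 symbol, for 21515 genes. The members were 22 genes of the large subunit, 16 of the small subunit, 2 of the P-stalk and 7 paralogs. By gene biotype 45 were protein coding and 2 were pseudogenes: Rpl6l, which is counted with the large subunit as is the copy Rpl32l, and Rps4l, which is counted with the paralogs. Rpl5, Rpl10, Rpl23, Rplp1 and Rps4x were not analysed here.

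RNA was measured on 8 Affymetrix whole-transcript arrays, 2 biological replicates per group. LMP1 cells (LMP1flSTOP/YFPflSTOP) and YFP control cells (YFPflSTOP/+) came from spleens of female (C57BL6XBALBc) F1 mice, received TAT-Cre, a recombinase that enters cells on its own, and were sorted for the YFP reporter after 2 days. CD40-activated cells came from male B6/J mice and were kept with anti-CD40 for 2 days, whereas naive control cells of the same strain and sex went into RNA extraction directly. Spleen B cells of all groups had been enriched by CD43 depletion, and the LMP1 and YFP control arrays were taken over from an earlier series. LMP1 and YFP control therefore shared strain, sex, TAT-Cre, sort and array set. Between LMP1 and CD40-activated cells, and between YFP control and naive control, these conditions cannot be told apart from the group, and between CD40-activated and naive control the 2 days of culture go with the antibody. In the YFP control, reporter-positive cells carry the recombined YFP allele but no LMP1 allele.

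Every ribosome holds a large and a small subunit, each built in the nucleolus from ribosomal RNA and proteins that arrive in equal number, so cells keep the output of many separate genes balanced. Much of that balance is set at translation: ribosomal protein messages begin with a run of pyrimidines, the 5′ terminal oligopyrimidine or TOP motif, through which mTORC1 and the RNA-binding protein LARP1 hold them back or release them, so that the message level is only part of protein output. Resting lymphocytes translate little, and activation through receptors such as CD40, or through the Epstein-Barr virus membrane protein LMP1, which signals without a ligand, is followed by growth and new ribosome assembly.

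The TOP motif is a sequence feature described for these messages that the name rule did not use. In the start-site windows of the RefSeq table (GRCm38.p6, 25 bases either side of a listed start, sense strand) a run was counted where at least 7 C or T stood together beginning with C. The following windows, with the run in capitals, show long and short runs that reach within 5 bases of the listed start. For contrast they include Rpl7l1 and Rps7, which rose without one.
Rpl7a: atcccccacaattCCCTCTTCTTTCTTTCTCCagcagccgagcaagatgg
Rpl15: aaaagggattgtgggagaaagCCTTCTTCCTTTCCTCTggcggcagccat
Rpl35: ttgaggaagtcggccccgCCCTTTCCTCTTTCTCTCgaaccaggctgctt
Rps10: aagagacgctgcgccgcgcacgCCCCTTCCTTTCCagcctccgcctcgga
Rplp2: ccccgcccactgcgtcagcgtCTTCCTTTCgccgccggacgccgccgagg
Rps24: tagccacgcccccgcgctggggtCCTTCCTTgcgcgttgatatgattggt
Rps27: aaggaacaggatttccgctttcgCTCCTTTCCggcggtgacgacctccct
Rps27l: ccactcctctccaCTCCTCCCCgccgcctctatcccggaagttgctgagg
Rpl7l1: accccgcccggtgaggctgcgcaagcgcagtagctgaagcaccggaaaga
Rps7: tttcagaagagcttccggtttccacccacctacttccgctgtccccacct
These windows lie at chr2:26910782-26910831 on the plus strand (Rpl7a), chr14:18270962-18271011 on the minus strand (Rpl15), chr2:39005107-39005156 on the minus strand (Rpl35) and chr17:27635220-27635269 on the minus strand (Rps10). Those of Rplp2 at chr7:141447626-141447675 and Rps24 at chr14:24490653-24490702 are on the plus strand, that of Rps27 at chr3:90213624-90213673 on the minus strand, and that of Rps27l at chr9:66946061-66946110 on the plus strand. Rpl7l1 at chr17:46782632-46782681 and Rps7 at chr12:28635929-28635978, both on the minus strand, hold no such run. The runs of Rpl35 and Rpl7a were the longer ones shown, with 18 and 19 bases, against 8 in Rps24 and 9 in Rplp2, Rps27 and Rps27l. That of Rps27l begins 12 bases before the listed start and ends before it, so from that start it would not be in the message.

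A start was listed for 39 of the 47 members. A run stood somewhere in the window of 24 of them (61.5%), against 25.6% of the 27025 genes of the table, and it reached within 5 bases of a start in 20 (51.3%), against 12.2%. Among the mitochondrial ribosomal proteins, which serve the separate ribosome of that organelle, 60 had a start and 13.3% held a run there. Members with and without a run were among those that rose, and the groups were not tested against each other. Of the 20 with a run at the start 7 rose with LMP1 (median log2 change 0.23), and of the 19 without one 8 rose (median 0.69), where 14.9% of all genes rose. With CD40 activation 5 of each rose, with medians of 0.43 and 0.47, where 11.0% of all genes rose. A match describes letters in a window and does not show a motif in use, and listed starts can differ from those used in B cells. Some of the 20 runs counted at a start, as in Rpl4, Rpl10a and Rps27l, end before the listed start.

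The arrays give log2 expression per probe set, and a gene with several probe sets is represented by the brightest. Levels of different probe sets cannot be set against each other, and ribosomal proteins have many near-identical processed copies in the genome that a probe can also read, so each value belongs to a probe set first and to a gene with that uncertainty. Mean levels of the members over the 8 arrays ran between 2.66 (Rpl32l) and 12.9 (Rpl28). Brightness depends on the probes as well as on the message, and it is used here only to group probe sets of like signal: 21 members read at least 9, as did 8.78% of all genes. Of 7 B cell markers 6 were measured, and their summed level (log2) was 13.66 and 13.7 in LMP1 cells, 14.72 and 14.55 in YFP control cells, 14.46 and 14.43 in CD40-activated cells and 14.3 and 14.32 in naive control cells. Arrays of a group correlated across genes with r = 0.975 for YFP control and 0.981 to 0.996 for the other groups. YFP control 1 and 2 lay more than 0.5 log2 apart at 19 of the 47 members, with YFP control 2 the lower at 30 (median difference of -0.23 over the members and 0.06 over all genes), while LMP1 had 0 such members, CD40-activated 1 and naive control 2. On a bulk array, a change in message per cell and a change in the mix of cells cannot be told apart.

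**Figure D1:**
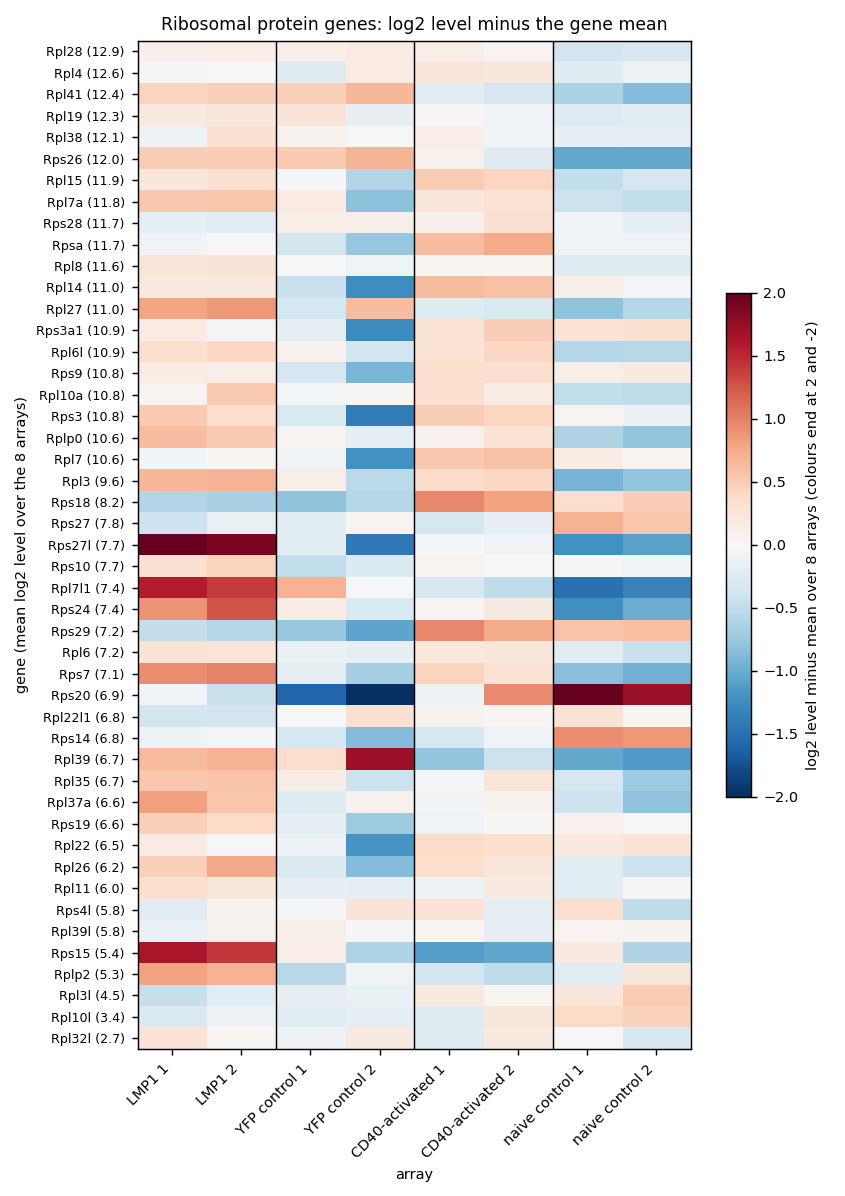
Log2 expression of each ribosomal protein gene on the 8 arrays, shown relative to that gene's mean over all arrays, one row per gene and one column per array, with columns in the order LMP1, YFP control, CD40-activated and naive control. YFP control 2 is below YFP control 1 at 30 of the 47 genes, and Rps20 stands out with high values on both naive control arrays.

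The contrast of LMP1 with YFP control addresses what expression of LMP1 alters within 1 genetic background. Ribosomal protein messages were higher on the whole: 17 of the 47 (36.2%) rose and 0 fell at an adjusted p under 0.05 in limma's moderated test over all genes, where 14.9% of all genes rose and 8.31% fell. At an unadjusted p under 0.05, 28 of the 47 members passed in either direction, as did 7302 of the 21515 genes. The members' median log2 change was 0.54, against -0.08 over all genes, and it stayed above 0 under each scaling tried. Without YFP control 2 it was 0.32. On 31 members both LMP1 arrays lay above both YFP control arrays (27.5% of all genes did), and on 5 they lay below (33.7%). All 17 risen members were among the 31. Where genes are split at a mean level of 9, a split chosen after the values were seen, 6 of 21 brighter members rose (28.6%), beside 28.1% of all genes that bright, and 11 of 26 dimmer members rose (42.3%), beside 13.6% of dimmer genes. The median change was 0.535 over the brighter members, beside 0.14 over all genes that bright. Over the dimmer members it was 0.61, beside -0.08 over dimmer genes.

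The largest rise was that of Rps27l, the paralog of the small-subunit protein gene Rps27 and a known target of p53. Its level was 9.90 and 9.62 in LMP1 cells and 7.51 and 6.31 in YFP control cells, so the groups are well apart although the YFP control arrays differ by 1.20. The log2 change was 2.85 ± 0.32 (SE, 2 arrays per group, adjusted p = 0.000192 in limma). The parent gene Rps27 read 7.40 and 7.67 in LMP1 cells and 7.59 and 7.87 in YFP control cells, with overlapping arrays and a change of -0.20 ± 0.18 (adjusted p = 0.51 in limma).

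The small subunit gave 8 risen genes of 16 (median 0.76) and 0 that fell. Rps20, a protein of the small-subunit head, had levels of 6.85 and 6.46 in LMP1 cells against 5.32 and 4.34 in YFP control cells, a change of 1.83 ± 0.38 (adjusted p = 0.00594 in limma). Rps15, which the small subunit needs for leaving the nucleus, had 7.03 and 6.81 in LMP1 cells and 5.53 and 4.78 in YFP control cells, a change of 1.77 ± 0.29. On both genes the lower LMP1 array was more than 1 log2 above the higher YFP control array.

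Rps7, one of the ribosomal proteins that bind Mdm2, the ubiquitin ligase of p53, read 7.99 and 8.06 in LMP1 cells against 6.89 and 6.40 in YFP control cells, a change of 1.38 ± 0.20 (adjusted p = 0.000725 in limma). Rps24, mutated in some patients with Diamond-Blackfan anaemia, read 8.27 and 8.63 in LMP1 cells and 7.52 and 7.07 in YFP control cells, a change of 1.16 ± 0.21. Rps3, which sits where messenger RNA enters the ribosome, read 11.28 and 11.09 in LMP1 cells and 10.44 and 9.35 in YFP control cells, a change of 1.29 ± 0.30 (adjusted p = 0.0104 in limma). For these genes too the arrays of the groups lie apart, but Rps3 depends much on YFP control 2, without which its change is 0.75. Rps19, the gene most often mutated in Diamond-Blackfan anaemia, rose by 0.90 ± 0.20, Rps9, which takes part in accurate decoding, by 0.77 ± 0.20 and Rps10, a head protein that is ubiquitinated on stalled ribosomes, by 0.75 ± 0.16, while Rps3a1 at 0.80 ± 0.29 (adjusted p = 0.08 in limma) did not pass. Without YFP control 2 the change of Rps9 is 0.48 and no longer passes.

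In the large subunit 5 of 22 rose, 0 fell, and the median change was 0.49. Rpl26, a protein near the exit of the peptide tunnel that also binds the p53 message, had levels of 6.65 and 6.93 in LMP1 cells against 5.91 and 5.32 in YFP control cells, a change of 1.18 ± 0.22 (adjusted p = 0.00342 in limma). Rpl3, which reaches towards the peptidyl transferase centre, had 10.25 and 10.26 in LMP1 cells and 9.69 and 9.04 in YFP control cells, a change of 0.89 ± 0.21. Rpl14 rose by 1.04 ± 0.24, Rpl7a by 0.88 ± 0.27 and Rpl37a, a zinc-finger protein, by 0.78 ± 0.20. The arrays of the groups lie apart on all 5, yet the YFP control arrays of Rpl7a, 11.92 and 10.93, differ by about as much as the change itself. Without YFP control 2 the change is 0.38 for Rpl7a, which is then not past the test, 0.64 for Rpl14 and 0.57 for Rpl3.

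Both measured P-stalk genes rose; the stalk of acidic proteins on the large subunit recruits the GTPases of translation. Rplp0, its base, read 11.19 and 11.10 in LMP1 cells and 10.63 and 10.40 in YFP control cells, a change of 0.63 ± 0.17 (adjusted p = 0.0233 in limma). Rplp2, a tip protein, read 6.1 and 6.0 in LMP1 cells and 4.75 and 5.22 in YFP control cells, a change of 1.07 ± 0.21 (adjusted p = 0.00495 in limma).

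Of the 7 paralogs Rps27l and Rpl7l1 rose. Rpl7l1, a paralog of Rpl7 that acts in assembly of the large subunit, had levels of 8.95 and 8.77 in LMP1 cells against 8.07 and 7.38 in YFP control cells, a change of 1.14 ± 0.23 (adjusted p = 0.0052 in limma), while Rpl7 itself had a change of 0.63 ± 0.30 (adjusted p = 0.181 in limma). Rpl22l1 had the lowest change of all members, with 6.40 and 6.38 in LMP1 cells and 6.77 and 7.07 in YFP control cells, a difference of -0.53 ± 0.17 that just missed the threshold (adjusted p = 0.0544 in limma). Its parent Rpl22, which lymphocytes need in their development, had 6.66 and 6.49 in LMP1 cells and 6.37 and 5.31 in YFP control cells, a difference of 0.74 ± 0.29 (adjusted p = 0.0986 in limma). The muscle paralog Rpl3l, the testis paralogs Rpl10l and Rpl39l and the pseudogene Rps4l had differences of -0.20, -0.01, -0.07 and -0.17, and none passed.

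**Figure D2:**
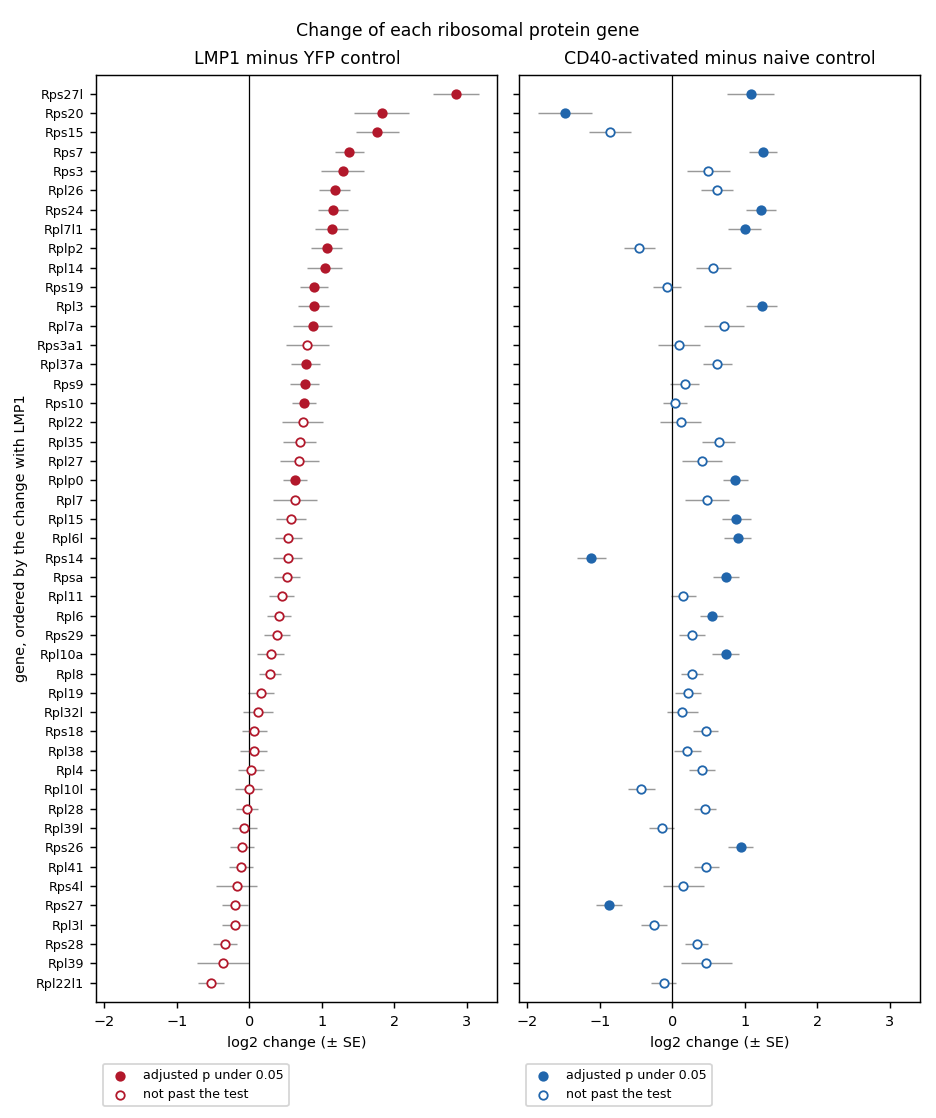
Log2 change ± SE of each of the 47 ribosomal protein genes, LMP1 minus YFP control on the left and CD40-activated minus naive control on the right, both in the order of the change with LMP1. Filled points passed an adjusted p under 0.05, 17 on the left and 15 on the right, and Rps20, Rps14 and Rps27 are the filled points left of 0 on the right.

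Just short of the threshold stood Rpl35, a protein at the tunnel exit (0.70 ± 0.23, adjusted p = 0.0517 in limma). Rpl11, which with Rpl5 binds Mdm2, had 6.31 and 6.22 in LMP1 cells and 5.84 and 5.80 in YFP control cells, a difference of 0.45 ± 0.17 whose adjusted p in limma was 0.0921. Other members differed little: Rpl28 read 13.05 and 13.08 in LMP1 cells and 13.08 and 13.11 in YFP control cells, Rpl4 differed by 0.03, Rpl38 by 0.06 and Rpl41, the smallest ribosomal protein, by -0.12. Of the 17 calls 5 (Rpl26, Rps7, Rps15, Rps24 and Rps27l) held under each of the 8 other settings and without any single array. Markers of other cells moved here too. Of 5 monocyte and macrophage markers 2 fell, with summed levels of 7.16 and 7.21 in LMP1 cells and 8.29 and 8.72 in YFP control cells, and of 4 plasma cell markers 2 fell, with 9.51 and 9.53 in LMP1 cells and 10.2 and 10.29 in YFP control cells. Of the 6 B cell markers 4 fell and of the 6 T cell markers 2, with T cell sums of 8.18 and 8.30 in LMP1 cells and 8.45 and 8.94 in YFP control cells. Their part in the ribosomal protein values was not tested. The count of changed members was 5 without LMP1 1, 9 without LMP1 2 and 27 without YFP control 1, and 11 with only these 4 arrays fitted.

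The contrast of CD40-activated with naive control cells addresses activation through CD40, together with its culture. Here 12 members (25.5%) rose and 3 (6.38%) fell, where 11.0% of all genes rose and 6.65% fell. At an unadjusted p under 0.05, 25 of the 47 members passed in either direction, as did 6554 of the 21515 genes. The members' median change was 0.41, against -0.05 over all genes, and it was 0.13 when arrays were centred on the brightest 10% of genes. On 32 members both CD40-activated arrays lay above both naive control arrays (28.4% of all genes), and on 8 below (31.2%). Among members at a level of 9 or more 7 of 21 rose (33.3%), close to the 31.4% of all genes that bright, and among dimmer members 5 of 26 (19.2%), beside 9.06% of dimmer genes. The median change was 0.475 over the brighter members, beside 0.335 over all genes that bright. Over the dimmer members it was 0.145, beside -0.07 over dimmer genes.

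In the large subunit 5 of 22 rose, 1 of them the pseudogene Rpl6l, 0 fell, and the median change was 0.47. Rpl3 had levels of 9.94 and 9.99 in CD40-activated cells against 8.65 and 8.81 in naive control cells, a change of 1.24 ± 0.21 (adjusted p = 0.00354 in limma). Rpl15 rose by 0.89 ± 0.20, Rpl6l by 0.91 ± 0.19, Rpl10a, the protein of the mobile stalk at the exit side, by 0.74 ± 0.19 and Rpl6 by 0.55 ± 0.16. By the brightest probe sets the fitted change was above 0 on all 22, the lowest being that of Rpl22 at 0.12. Dimmer probe sets of Rpl4 (-0.30 ± 0.22) and Rpl7a (-0.405 ± 0.29) and the dimmest of Rpl41 (-0.43 ± 0.26) lay below 0 and did not pass. The dimmer ones of Rpl3, Rpl7, Rpl19, Rpl27 and Rpl35 and the other dimmer one of Rpl41 lay above 0.

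The small subunit was divided, with 4 risen and 3 fallen genes of 16 and a median change of 0.22. Rps7 read 7.51 and 7.33 in CD40-activated cells against 6.23 and 6.10 in naive control cells, a change of 1.26 ± 0.20 (adjusted p = 0.002 in limma). Rps24 read 7.42 and 7.55 in CD40-activated cells and 6.15 and 6.38 in naive control cells, a change of 1.22 ± 0.21. Rps26, which touches the message upstream of the start codon, rose by 0.95 ± 0.17, and Rpsa, the protein also described as a laminin receptor, by 0.75 ± 0.18.

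Rps20 fell to 6.81 and 7.85 in CD40-activated cells, against 8.98 and 8.64 in naive control cells, by 1.48 on the log2 scale (SE 0.38, adjusted p = 0.0232 in limma). The arrays of the groups lie apart, but the CD40-activated arrays differ by 1.04, and without CD40-activated 1 the difference is -0.96 and does not pass. Rps14, a platform protein of the small subunit, read 6.41 and 6.69 in CD40-activated cells and 7.69 and 7.64 in naive control cells, a change of -1.12 ± 0.20 (adjusted p = 0.00453 in limma). Rps27 read 7.49 and 7.65 in CD40-activated cells and 8.52 and 8.37 in naive control cells, a change of -0.88 ± 0.18.

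Rplp0 rose by 0.87 ± 0.17 with CD40 activation, whereas Rplp2 had levels of 4.91 and 4.79 in CD40-activated cells and 5.09 and 5.52 in naive control cells and did not pass (adjusted p = 0.183 in limma). Among the paralogs Rps27l read 7.69 and 7.66 in CD40-activated cells against 6.53 and 6.66 in naive control cells, a change of 1.08 ± 0.32 (adjusted p = 0.043 in limma), and Rpl7l1 rose by 1.00 ± 0.23. Of the 15 calls 3 (Rpl3, Rps7 and Rps24) held under each other setting and without any single array. The count was 4 without CD40-activated 1, 6 without CD40-activated 2 and 27 without either YFP control array, whose spread enters the shared error.

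The naive control arrays also carried messages of other spleen cells. All 6 T cell markers fell in CD40-activated cells, with a summed level (log2) of 8.83 and 8.57 on the CD40-activated arrays and 11.72 and 11.42 on the naive control arrays. For the 4 markers of NK cells it was 7.18 and 7.21 on the CD40-activated arrays and 9.30 and 8.58 on the naive control arrays (2 markers fell), and for the 3 measured of 7 erythroid and platelet markers 6.63 and 6.62 on the CD40-activated arrays and 11.7 and 10.03 on the naive control arrays (2 fell). Of 5 monocyte and macrophage markers 3 fell with CD40 activation, with sums of 7.03 and 7.26 on the CD40-activated arrays and 8.56 and 7.86 on the naive control arrays. Of 4 plasma cell markers 2 rose and 1 fell. The part of these cells in the ribosomal protein values of the naive control was not tested.

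The responses to LMP1 and to CD40 share no array, and the difference between them was tested for each gene. Across the 47 members the changes were weakly related (r = 0.109, a description over genes of the same arrays). In both responses 6 members rose: Rpl3, Rpl7l1, Rplp0, Rps7, Rps24 and Rps27l. These are 12.8% of the members, beside 6.70% of all genes that rose in both. Only Rps7 and Rps24 were among the calls named above as held throughout in both responses. With quantile normalization within each array set, or centring on the brightest 10% of genes, Rplp0 no longer passed with LMP1 and Rps27l with CD40. With only the groups compared fitted, Rplp0 and Rpl3 did not pass with LMP1. A further 10 rose with LMP1 and did not pass with CD40 (21.3%, beside 7.85% of all genes), and 6 rose with CD40 and did not pass with LMP1 (12.8%, beside 3.62%). Rps20 rose with LMP1 and fell with CD40 (2.13%, beside 0.353%). The counts stand beside those of all genes and no overlap was tested. By the brightest probe sets, the difference between responses passed for 6 members. Of these, 5 had the higher change under LMP1 (10.6%, beside 4.20% of all genes) and 1 had the higher change under CD40 (2.13%, beside 4.12%). Dimmer probe sets of Rpl3 (1.69 ± 0.29), Rpl7a (1.69 ± 0.42) and Rpl35 (1.645 ± 0.29) passed as well. The brightest ones of these genes gave -0.345, 0.16 and 0.055 and did not pass.

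Rps20 had the widest difference, 3.31 ± 0.53 (adjusted p = 0.00497 in limma), followed by Rps15 at 2.63 ± 0.41, Rps27l at 1.77 ± 0.45, Rps14 at 1.65 ± 0.29 and Rplp2 at 1.52 ± 0.30, and Rps26 stood on the other side at -1.05 ± 0.24. The dimmer probe set of Rps20 gave a difference of 0.845 ± 0.37 and did not pass (adjusted p = 0.208 in limma). Rps15 was low after CD40 activation, at 4.30 and 4.36, against 5.58 and 4.80 in naive control cells, although that fall was not past the test (adjusted p = 0.0724 in limma). Rps26 was high in LMP1 cells, 12.52 and 12.53, and in YFP control cells, 12.55 and 12.70, against 12.10 and 11.78 in CD40-activated and 10.99 and 11.00 in naive control cells. The calls of Rps15 and Rps20 held under each other setting and without any single array. That of Rps27l was lost without any 1 of the LMP1, CD40-activated or naive control arrays, and its value was 1.17 without YFP control 2. The call of Rps26 was lost without any 1 of the same 6 arrays, with quantile normalization within each array set, with centring on the brightest 10% of genes and with probe sets averaged, where its value was -0.34; its dimmer probe set gave 0.37 ± 0.47. The call of Rps27l was lost as well with array medians subtracted. The call of Rplp2 was lost without any 1 of the LMP1 or CD40-activated arrays, and that of Rps14 without CD40-activated 1.

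**Figure D3:**
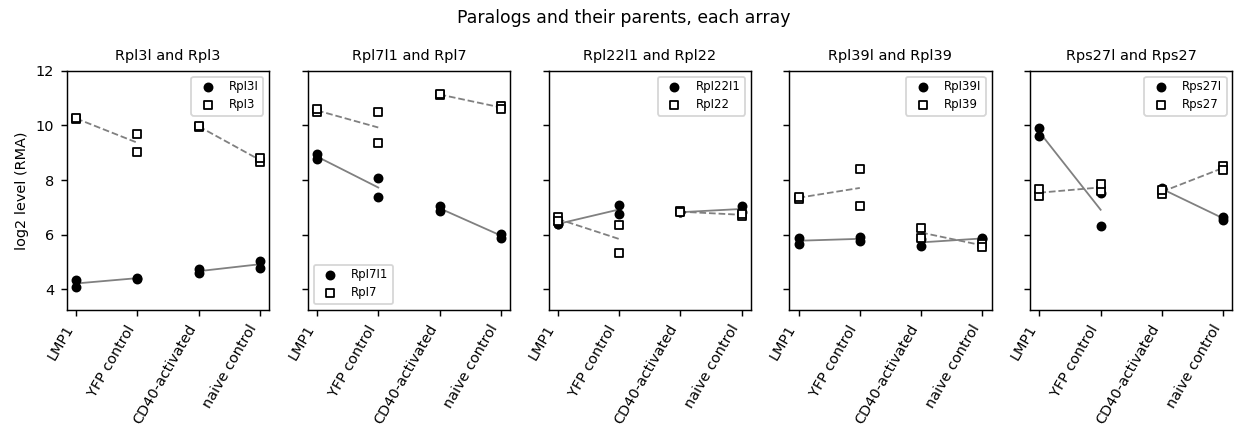
Log2 expression on each array, by group in the order LMP1, YFP control, CD40-activated and naive control, for ribosomal protein paralogs beside their measured parent genes. Rps27l is at 9.90 and 9.62 in LMP1 cells, above all other arrays, while its parent Rps27 lies between 7.40 and 7.87 on all arrays but those of the naive control.

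Set directly against CD40-activated cells, LMP1 cells had 10 members higher (21.3%, beside 9.66% of all genes) and 3 lower (6.38%, beside 5.17%), with strain, sex, TAT-Cre, sort and array set differing too. The members' median difference was 0.06, with 0 over all genes, and it turned to -0.04 when arrays were centred on the brightest 10% of genes. Both LMP1 arrays lay above both CD40-activated arrays at 22 members (32.6% of all genes) and below at 13 (30.1%). Rps15 differed most, with 7.03 and 6.81 in LMP1 cells against 4.30 and 4.36 in CD40-activated cells, a difference of 2.59 ± 0.29 (adjusted p = 0.000362 in limma). Rps27l was higher in LMP1 cells by 2.09 ± 0.32 and Rpl7l1 by 1.90 ± 0.23. The other members that were higher were Rpl39 (1.28 ± 0.35), Rplp2 (1.20 ± 0.21), Rpl27 (1.11 ± 0.27), Rps24 (0.97 ± 0.21), Rpl41 (0.74 ± 0.17), Rpl37a (0.68 ± 0.20) and Rps26 (0.59 ± 0.17). These calls use the brightest probe sets. Dimmer probe sets of Rpl35 (1.86 ± 0.21) and Rpl3 (0.835 ± 0.20) were higher too and that of Rps9 (-1.425 ± 0.20) lower, all past the test. The brightest ones of these genes did not pass.

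Lower in LMP1 than in CD40-activated cells were Rps18, with 7.63 and 7.56 against 9.18 and 9.01 (-1.50 ± 0.17, adjusted p = 0.000348 in limma), Rps29, with 6.74 and 6.64 against 8.18 and 7.96 (-1.38 ± 0.18), and Rpsa (-0.72 ± 0.18). Rps18 and Rps29 are proteins of the small-subunit head, and by their brightest probe sets neither passed the test of LMP1 against YFP control or of CD40-activated against naive control. The value of Rps18 rests on its brightest probe set: the dimmer ones gave 0.19 ± 0.20 and -0.29 ± 0.17 between LMP1 and CD40-activated cells and did not pass, and the mean of all 3 gave -0.53. With probe sets averaged, the difference was -0.50 for Rpsa and 0.61 for Rpl27, and neither passed. The calls of Rpl7l1, Rps15, Rps18, Rps27l and Rps29 held under each other setting and without any single array. The count was 6 without LMP1 1, LMP1 2 or CD40-activated 1, 5 without CD40-activated 2, and 22 with only these 4 arrays fitted.

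The controls themselves differed. In YFP control cells 7 members were higher than in naive control cells (14.9%, beside 10.9% of all genes) and 9 were lower (19.1%, beside 7.59%), and the lower ones included 7 of the 16 small-subunit genes. Both YFP control arrays lay above both naive control arrays at 18 members (27.5% of all genes) and below at 16 (25.3%). The median over all members was 0.13, with 0.01 over all genes, and it was -0.08 without YFP control 1 and -0.10 with centring on the brightest 10%. The small-subunit median was -0.61 and that of the large subunit 0.21, both by the brightest probe sets. Dimmer probe sets of Rpl7a (-1.665 ± 0.29) and Rpl3 (-0.855 ± 0.20) were lower past the test. Their brightest ones gave 0.13 ± 0.27 and 0.635 ± 0.21 and did not pass. The dimmer ones of Rpl4, Rpl7 and Rpl19 and the dimmest of Rpl41 lay below 0 without passing. Those of Rpl27 and Rpl35 lay above 0 without passing, and the other dimmer one of Rpl41 was higher by 1.87 ± 0.16.

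Rps20 had the widest gap between the controls, with 5.32 and 4.34 in YFP control cells against 8.98 and 8.64 in naive control cells, a difference of -3.98 ± 0.38 (adjusted p = 0.000167 in limma). The difference was -1.51 ± 0.20 for Rps14, -1.49 ± 0.18 for Rps29, -1.11 ± 0.17 for Rps18 and -1.03 ± 0.29 for Rps3a1, the last being -0.50 and not past the test without YFP control 2. Rps9 and Rpl14 were lower as well (-0.79 ± 0.20 and -0.89 ± 0.24), but without YFP control 2 their differences were -0.50 and -0.48 and did not pass. Rpl39, a short protein in the wall of the peptide exit tunnel, was higher, with 7.03 and 8.39 in YFP control cells against 5.66 and 5.55 in naive control cells, a difference of 2.11 ± 0.35. Rpl7l1 was higher by 1.76 ± 0.23, Rps26 by 1.63 ± 0.17 and Rpl41 by 1.32 ± 0.17. Smaller differences that passed were those of Rps24 (1.03 ± 0.21), Rplp0 (0.63 ± 0.17), Rpl28 (0.51 ± 0.15), Rps27 (-0.72 ± 0.18) and, at the threshold, Rpl10l (-0.62 ± 0.19). With probe sets averaged, the difference was 0.09 for Rplp0, whose dimmer probe set gave -0.46 ± 0.23, and -0.45 for Rps18, and neither passed. The calls of Rpl7l1, Rpl39, Rpl41, Rps14, Rps20, Rps26 and Rps29 held under each other setting and without any single array. Yet the dimmest probe set of Rpl41 gave -0.655 ± 0.26 and the dimmer one of Rps26 0.46 ± 0.33, and neither passed. The count was 8 without naive control 1, 9 without naive control 2 and 10 without any 1 of the LMP1 or CD40-activated arrays. All 6 T cell markers, 3 of 4 NK cell markers and 2 of 3 erythroid and platelet markers were lower in YFP control than in naive control cells. The plasma cell markers were higher, 3 of 4 past the test, with sums of 10.2 and 10.29 in YFP control cells and 9.21 and 9.14 in naive control cells, while of 5 monocyte and macrophage markers 1 was higher and 1 lower. Their part in these differences was not tested.

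Where a gene had several probe sets, as 16 members did, these did not always give the same answer. With LMP1 the probe sets of 10 genes had the same call and those of 4 genes all rose. With CD40 those of 8 genes had the same call and on 0 genes did all rise. The sign was shared on 11 genes in each of these comparisons and on 8 between YFP control and naive control. Opposite calls within a gene numbered 0 in all of them. Fitted one by one, 26 of the 65 probe sets rose with LMP1 and 0 fell, and with CD40 15 rose and 3 fell. Rpl35 had a second probe set at 7.66 and 7.59 in LMP1 cells against 5.47 and 5.13 in YFP control cells, a change of 2.33 ± 0.21, where the brighter one gave 0.70 ± 0.23. Rpl3 likewise had a second probe set with 2.07 ± 0.20 beside 0.89 ± 0.21, but with CD40 that probe set gave 0.38 ± 0.20 (adjusted p = 0.252 in limma) beside 1.24 ± 0.21, and the mean of both gave 0.81. Rpsa had a second probe set with 1.21 ± 0.29 beside 0.53 ± 0.18.

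Rps26 and Rps28 were among the genes whose probe sets differed in sign with LMP1. Rps18 was another, with 0.64 ± 0.20 and past the test on one of its dimmer probe sets, -0.46 ± 0.17 on the other and 0.07 ± 0.17 on the brightest. The dimmer probe set of Rps28 read 6.86 and 6.98 in LMP1 cells against 6.16 and 5.50 in YFP control cells and rose by 1.09 ± 0.22, and the brighter one gave -0.34 ± 0.16 and did not pass. For Rps26 the dimmer gave 1.30 ± 0.33 and the brighter -0.10 ± 0.17. For Rps20, as for Rps18, the pattern rests on 1 probe set: the dimmer one rose by 0.84 ± 0.26 with LMP1, but its change with CD40 was -0.01 ± 0.26, beside -1.48 ± 0.38, and its difference between YFP control and naive control -0.78 ± 0.26, beside -3.98 ± 0.38. With probe sets averaged, the change of Rps20 with CD40 was -0.75 and did not pass.

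**Figure D4:**
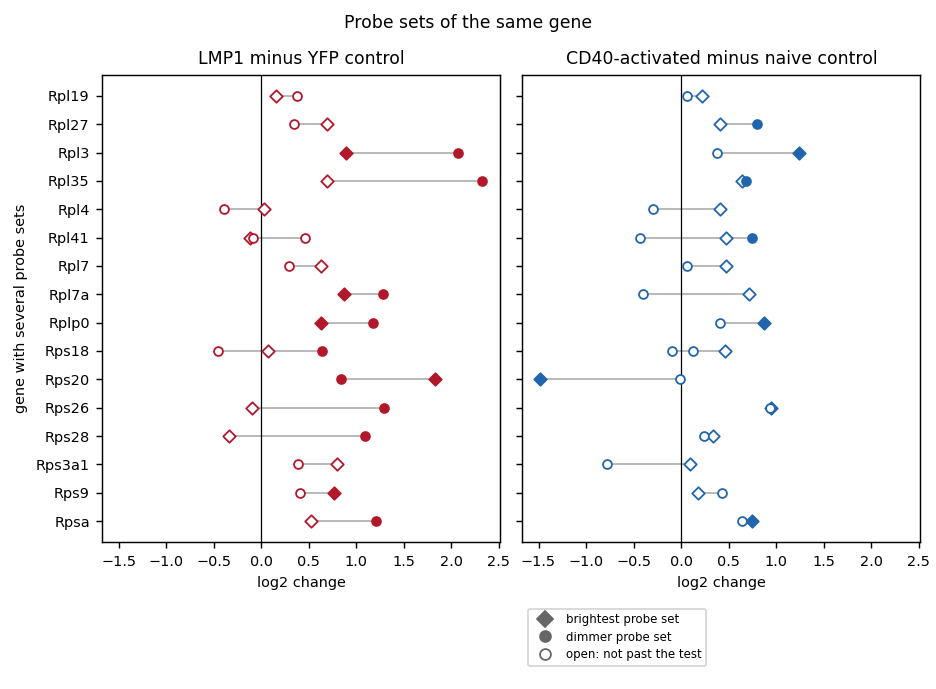
Log2 change of each probe set for the 16 ribosomal protein genes that have several, LMP1 minus YFP control on the left and CD40-activated minus naive control on the right, with diamonds for the brightest and circles for dimmer probe sets, filled past an adjusted p under 0.05. The dimmer probe sets of Rpl35 and Rpl3 lie above 2 with LMP1, and the brighter and dimmer probe sets of Rps28 lie on either side of 0.

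Other genes around the ribosome were taken from lists by function. Their counts stand beside 14.9% of all genes that rose with LMP1 and 11.0% with CD40. Among all genes at a level of 9 or more these shares were 28.1% and 31.4%. Of 17 measured genes listed as carrying a TOP motif beside the ribosomal proteins, such as elongation factors, 12 had a listed start and 33.3% of those held a run at it by the count above. Of the 17, 10 rose with LMP1 and 0 fell (median 0.67), and 4 rose with CD40 (median 0.50). Snhg1, the host of small nucleolar RNAs, rose by 2.30 ± 0.19 with LMP1, Eef1d, an exchange factor of elongation, by 1.57 ± 0.29, and Npm1, a nucleolar chaperone, by 1.39 ± 0.24. Eif3l rose with LMP1 by 1.17 ± 0.19 and with CD40 by 1.58 ± 0.19. Of 13 measured regulators of TOP messages 5 rose and 1 fell with LMP1, and 4 rose with CD40. Larp1 rose by 0.96 ± 0.20 with LMP1 and by 1.03 ± 0.20 with CD40, and Eif4ebp1, a translation repressor that mTORC1 switches off, by 1.77 ± 0.16 and 0.72 ± 0.16.

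Factors that build ribosomes rose as well. All 24 measured genes of assembly and rRNA processing rose with LMP1 (median 1.66) and 18 with CD40 (median 1.01). Nop2, a methyltransferase of ribosomal RNA, rose by 2.54 ± 0.31 with LMP1, the acetyltransferase Nat10 by 2.28 ± 0.22, Nop58 by 2.28 ± 0.22 and Polr1b, the second large subunit of RNA polymerase I, by 2.18 ± 0.19, and Noc4l had the widest rise of the list with CD40, 1.90 ± 0.23. A list of ribosomal protein chaperones and export also held factors such as Rrp1b and Bysl. Of its 15 measured genes 13 rose with LMP1 (median 1.30) and 10 with CD40 (median 0.74). With LMP1 the change was 2.46 ± 0.16 for Rrp1b, 2.35 ± 0.20 for Bysl and 1.99 ± 0.20 for Grwd1. The importin Ipo5 rose by 1.99 ± 0.17 with LMP1 and 1.69 ± 0.17 with CD40. Of the 69 mitochondrial ribosomal proteins 50 rose with LMP1 (median 0.94) and 34 with CD40 (median 0.61), and 0 fell in either. Of all genes 14.9% rose with LMP1 and 11.0% with CD40. These are counts side by side, and no list was tested against another.

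Fau, whose product carries a small-subunit protein and whose name the rule does not take, gave 0.36 ± 0.24 with LMP1 and 0.06 ± 0.24 with CD40, and neither passed. Of the 9 genes of the MYC family list 1 rose and 2 fell with LMP1, and 1 rose and 3 fell with CD40. Of all genes 14.9% rose and 8.31% fell with LMP1, and 11.0% rose and 6.65% fell with CD40. Myc, a transcription factor known to drive ribosomal genes, read 10.67 and 10.79 in LMP1 cells and 9.13 and 9.02 in YFP control cells, a change of 1.66 ± 0.19, while its change with CD40 was 0.08 ± 0.19 (adjusted p = 0.82 in limma). The genes that fell with LMP1 were Mxd4 (-2.10 ± 0.34) and Mnt (-0.81 ± 0.20), both partners of Max that oppose Myc. Of the 3 measured genes listed as p53 partners 2 rose with LMP1 and 1 with CD40. Mdm2 rose by 0.86 ± 0.17 with LMP1, and Cdkn1a, another target of p53 beside Rps27l, by 4.03 ± 0.16 with LMP1 and 1.46 ± 0.16 with CD40. The gene of this list that did not pass with LMP1 had a change of 0.25. With CD40 neither Mdm2 nor that gene passed, with changes of 0.295 and -0.46.

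**Figure D5:**
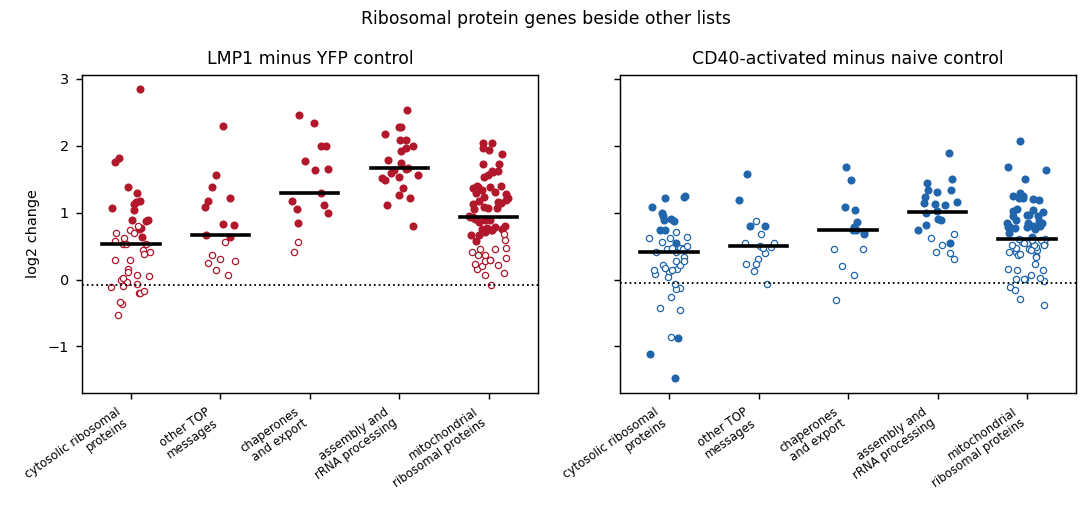
Log2 changes of the genes of each list, LMP1 minus YFP control and CD40-activated minus naive control, with a bar at the list's median, filled points past an adjusted p under 0.05 and a dotted line at the median of all genes. All 24 assembly genes lie above 0 with LMP1, with a median of 1.66, while the ribosomal proteins have a median of 0.54. The median of all genes at a level of 9 or more, which is not drawn, was 0.14 with LMP1 and 0.335 with CD40.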

How the data were processed

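The authors deposited log2 values for each probe set. They were made by RMA with oligo, per the submitters' processing notes, with versions not given in the sources used here. RMA includes quantile normalization over arrays, which assumes like overall distributions and can hide a shift common to most genes. Of 25349 probe sets 22225 matched 1 symbol, 616 several and 2508 none in the platform's annotation, and only the first kind was used. The brightest probe set stood for each of 640 genes with several. Array medians lay between 5.52 and 5.68, and 2 arrays per group limit the precision.

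A model of 4 group means over all 8 arrays was fitted in limma (3.58.1, R 4.3.3, with 4 residual and 5.75 prior degrees of freedom), with two-sided p-values adjusted by Benjamini-Hochberg over 21515 genes. Errors are standard errors of that fit. The fit was tried on simulated data with a common spread for all genes and 200 genes changed in the LMP1 group. That trial does not cover groups of unequal spread, as here with the YFP control. Biotypes and start windows came from RefSeq tables of GRCm38.p6. The members, lists and tests were chosen with earlier results of these data known. Named were the members with the highest and lowest changes per comparison, paralogs with parents, the P-stalk and members that bind Mdm2. Members with wide replicate gaps or near the threshold were named too. From the list of p53 partners only the genes that rose with LMP1 were named. From other lists the genes named were some of those among the 4 with the largest changes in a comparison. Protein sequences were not used here.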

Additional observations from a re-analysis of the deposited data

Results flagged for a closer look

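The difference between the responses to LMP1 and to CD40 activation was tested as an interaction in the limma fit over all genes. By the brightest probe sets it passed an adjusted p under 0.05 for 6 ribosomal protein genes. LMP1 change minus CD40 change (log2) was 3.31 for Rps20, 2.63 for Rps15, 1.77 for Rps27l, 1.65 for Rps14, 1.52 for Rplp2 and -1.05 for Rps26. The 4 groups enter each of these values, so the differences between the array sets enter as well, and these values rest on 2 arrays per group. For Rps26 the value was -0.34 and not past the test with probe sets averaged. For Rps20 the value rests on the brightest probe set, and the dimmer one gave 0.845 ± 0.37 and did not pass.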

How the results depend on the processing

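With 2 arrays per group, counts of changed members depended on single arrays. Leaving out each array in turn, the count ran between 5 and 27 for LMP1 minus YFP control (17 with all arrays), 4 and 27 for CD40-activated minus naive control (15), 5 and 16 for LMP1 minus CD40-activated (13), 8 and 20 for YFP control minus naive control (16) and 2 and 15 for the difference of responses (6). The median change ran between 0.32 and 0.64, 0.40 and 0.42, 0.06 and 0.18, -0.075 and 0.155, and -0.12 and 0.155 in the same order. Fitting only the groups compared gave 11 for LMP1 minus YFP control, 22 for LMP1 minus CD40-activated and 9 for YFP control minus naive control. The median for CD40-activated minus naive control was 0.46 without dim genes, 0.52 with array medians subtracted, 0.28 with quantile normalization within each array set, 0.13 with centring on the brightest 10% of genes and 0.27 with probe sets averaged. For LMP1 minus CD40-activated it was 0.10 without dim genes, 0.10 with quantile normalization within each set and -0.0425 with centring on the brightest 10% of genes, where the count was 8. For YFP control minus naive control it was -0.095 with that centring and -0.035 with probe sets averaged. That centring moved the median of all genes to -0.24 (LMP1 minus YFP control), -0.34 (CD40-activated minus naive control), -0.10 (LMP1 minus CD40-activated), -0.22 (YFP control minus naive control) and 0.15 (difference), and gave 13 members up and 1 down, 8 and 5, 5 and 3, 5 and 15, and 6 and 0. The share of rises among all calls over all genes, 64.2% for LMP1, was 50.6% with it and 52.1% with quantile normalization within sets; for CD40, 62.4% became 25.6%, 52.6% and, with array medians subtracted, 74.3%; for the controls 59.0% became 27.6% with the centring, for LMP1 against CD40-activated 65.1% became 53.6%, and for the difference 50.4% became 66.4%. With quantile normalization within sets, 14 members rose and 1 fell with LMP1, and 9 and 3 with CD40. The cause was not tested. With the replicate number as a block the counts were 17, 15, 11, 17 and 6. The differences between replicate 2 and replicate 1 of different groups correlated between -0.10 and 0.07 across all genes and between -0.39 and 0.31 across the members, so the numbers were treated only as names of arrays. Fits of each probe set on its own and the split at a level of 9 were chosen after seeing the data. Signal over background and the target of single probes limit members with near-identical copies.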
